A study of Mus musculus with 2 samples.

Results

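The 10 genes described here encode FOG1 and FOG2 (Zfpm1 and Zfpm2), GFI1 and GFI1B (Gfi1 and Gfi1b), and the corepressor subunits known to work with them (Kdm1a, Rcor1, Hdac1, Hdac2, Chd4 and Mta2). They were chosen by name from 21938 protein-coding genes, and their accessible regions are those that overlap the gene body or lie within 50 kb of it. Of 25801 accessible regions in all, 57 were found around these genes, and 41 of the 57 (71.9%) were listed in both replicates, against 67.5% of all regions.

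Accessible DNA was mapped in the mouse cell line G1E by ATAC-seq, in which a transposase inserts sequencing adapters into open chromatin. The labels describe G1E as an erythroid progenitor line without Gata1, from strain C57BL/6J, male, postnatal, at 0 days. The series held 1 group of 2 biological replicates with 50000 cells each, both from 1 donor. Both replicates lack Gata1, so no sample with the factor was compared, and nothing in the labels says whether they were separate cultures. The authors' thresholded lists gave 21194 accessible regions in replicate 1 and 22620 in replicate 2. The values are per peak and the lists give no read totals, so the depth is unknown and a gene or site with no listed region cannot be read as closed. Lists of cell type markers, chosen with earlier results of these data known, were read for promoter regions. Their counts describe the line and are not an independent check of its identity. All 7 erythroid progenitor genes on the list (Klf1, Tal1, Epor, Nfe2, Slc4a1, Ank1 and Kit) had a promoter region in both replicates. Of 11 markers of myeloid, lymphoid and other cells, 0 had one. The share over all protein-coding genes was 38.8%. Col1a1, a fibroblast marker, had a promoter region in replicate 2.

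FOG proteins are zinc finger cofactors that act through GATA factors. FOG1 binds the amino-terminal zinc finger of GATA factors and carries a short motif that recruits the NuRD complex, whose CHD4 subunit remodels nucleosomes, whose MTA2 subunit holds the deacetylases in place, and whose HDAC1 and HDAC2 subunits remove acetyl groups from histones. GFI1 and GFI1B bind DNA through zinc fingers, and their SNAG domain recruits the histone demethylase LSD1, the product of Kdm1a, together with its scaffold CoREST, the product of Rcor1, and the same deacetylases. GFI1B is needed for red cell and platelet development and GFI1 for granulocytes and lymphocytes, while FOG2 acts mainly in heart and gonad.

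The 4 factor genes had 16 regions in both replicates, and 11 of these were distal, that is, over 1000 bp from any annotated start site. The 6 corepressor genes had 25 regions in both replicates, of which 7 were distal, 6 lay at their own promoters and 12 at promoters of neighbouring genes. The factor genes had 2 own promoter regions in both replicates, those of Zfpm1 and Gfi1b, and 3 regions at promoters of neighbours. Of the 11 distal regions of the factor genes, 10 held a GATA motif in the 200 bp around the summit, with 22 matches in all. Of the 7 distal regions of the corepressor genes, 3 held one, with 5 matches, and all 3 lay upstream of Rcor1. Over all distal regions in both replicates the share with a match was 68.8%. Zfpm1 alone had 7 of the 11 distal regions and 14 of the 22 matches. Without it the other 3 factor genes had 4 distal regions, all 4 with a GATA motif and with 8 matches in all. Of the 7 distal regions of the corepressor genes, 4 were at Rcor1, 2 at Chd4 and 1 at Hdac1, and Kdm1a, Hdac2 and Mta2 had none. The totals are over 4 factor genes and 6 corepressor genes, so they are not on the same footing. A difference between the 2 groups of genes was not tested.

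**Figure D1:**
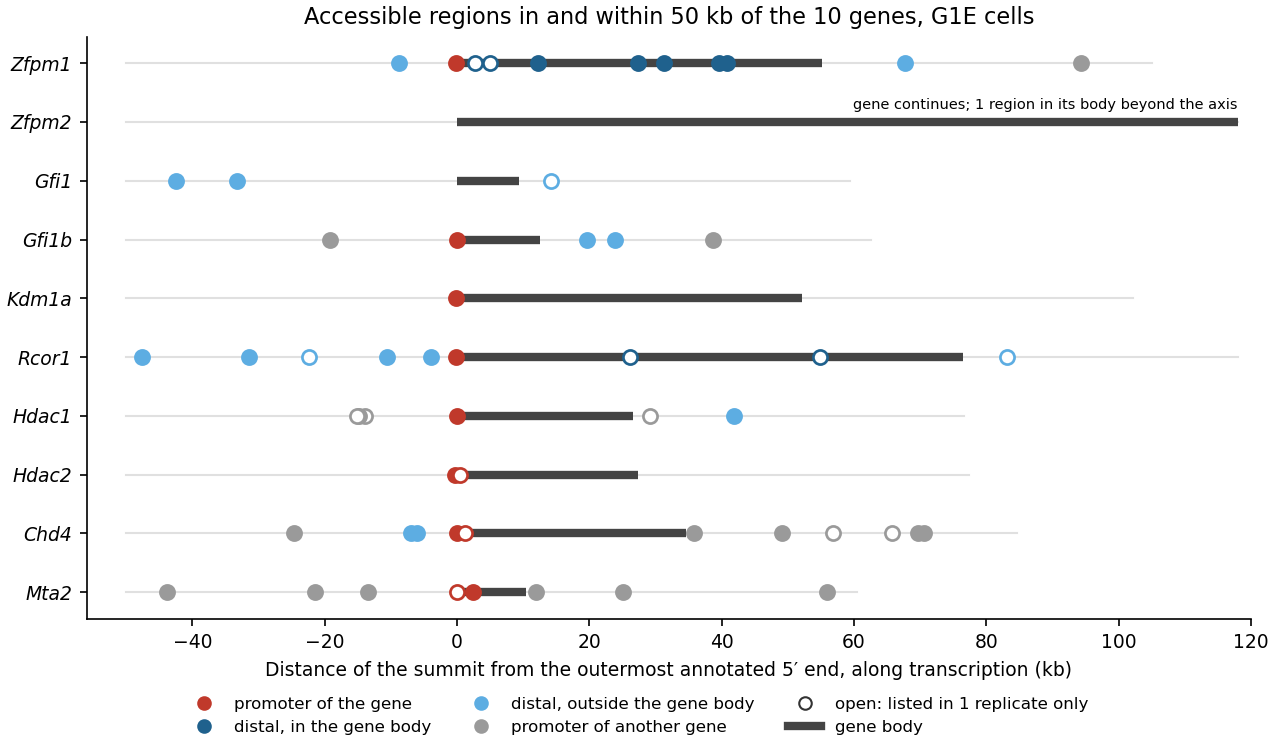
Position of each accessible region in and around the 10 genes, as the distance in kb of its summit from the outermost annotated 5′ end along the direction of transcription. Filled points were listed in both replicates and open points in 1, the thick bar is the gene body, and the grey line is the searched span, in which Zfpm1 had 9 regions in both replicates and Zfpm2 had 0.

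The sequences below are the 200 bp around the summit of replicate 1 in those regions of the factor genes listed in both replicates that held 2 or more GATA matches, and in the Zfpm1 region of highest mean percentile. They are shown because GATA is the motif through which FOG1's partners bind, and a match is common in distal regions of these cells in general. All are from the plus strand of mm10, written 5′ to 3′, with GATA matches in capitals (AGATAA or AGATAG, as well as the same letters with a T first, TGATAA or TGATAG, on either strand). In the Gfi1 window the capitals also mark RUNX matches (TGTGGT, read as ACCACA on this strand).
Zfpm1 intron, 12.2 kb downstream of the start, chr8:122294244-122294443: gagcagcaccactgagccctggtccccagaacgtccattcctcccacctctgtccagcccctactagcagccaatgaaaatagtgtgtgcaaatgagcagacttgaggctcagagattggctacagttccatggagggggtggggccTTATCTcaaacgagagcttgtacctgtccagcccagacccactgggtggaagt
Zfpm1 intron, 27.4 kb downstream, chr8:122309412-122309611: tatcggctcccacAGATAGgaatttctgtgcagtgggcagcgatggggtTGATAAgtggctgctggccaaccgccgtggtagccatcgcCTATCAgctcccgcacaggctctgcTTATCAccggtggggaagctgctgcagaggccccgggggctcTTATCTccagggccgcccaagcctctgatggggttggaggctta
Zfpm1 intron, 31.4 kb downstream, chr8:122313391-122313590: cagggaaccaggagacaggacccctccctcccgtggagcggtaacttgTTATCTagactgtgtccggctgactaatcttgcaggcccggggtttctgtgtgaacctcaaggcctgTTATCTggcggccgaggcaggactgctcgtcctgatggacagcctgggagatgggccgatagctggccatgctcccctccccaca
Zfpm1 intron, 40.7 kb downstream, chr8:122322789-122322988: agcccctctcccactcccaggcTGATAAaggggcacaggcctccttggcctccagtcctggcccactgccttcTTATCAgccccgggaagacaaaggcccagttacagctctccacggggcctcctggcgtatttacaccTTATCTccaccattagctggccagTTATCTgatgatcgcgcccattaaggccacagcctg
Gfi1, 33.3 kb upstream, in an intron of Evi5, chr5:107759191-107759390: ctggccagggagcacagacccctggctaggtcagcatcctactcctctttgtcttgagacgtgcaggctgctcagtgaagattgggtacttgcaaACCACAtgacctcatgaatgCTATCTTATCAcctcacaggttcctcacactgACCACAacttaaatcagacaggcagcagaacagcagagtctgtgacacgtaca
Gfi1b, 23.9 kb downstream of the start, intergenic, chr2:28598023-28598222: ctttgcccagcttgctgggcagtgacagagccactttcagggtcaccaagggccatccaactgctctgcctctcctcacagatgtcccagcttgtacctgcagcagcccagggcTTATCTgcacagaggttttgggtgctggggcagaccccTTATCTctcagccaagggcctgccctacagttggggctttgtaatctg
Gfi1b, 19.6 kb downstream of the start, intergenic, chr2:28602250-28602449: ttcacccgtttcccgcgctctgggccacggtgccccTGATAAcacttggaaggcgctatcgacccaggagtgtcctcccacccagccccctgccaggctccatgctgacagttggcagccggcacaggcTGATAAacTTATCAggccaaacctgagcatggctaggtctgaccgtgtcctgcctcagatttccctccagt
The Zfpm1 windows at 27.4 and 40.7 kb held 5 and 4 GATA matches, spread over both sides of the summit. In the Gfi1 window the 2 matches overlapped by 1 base, so that the 11 letters CTATCTTATCA hold both.

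Zfpm1 encodes FOG1, the cofactor of GATA1 in red cells and megakaryocytes. It lies on chromosome 8 (ENSMUSG00000049577.15, 122282141-122337251, plus strand) and had 9 regions in both replicates, the most of the 10 genes, and a further 2 in replicate 2 alone. Chd4 had 8 and equalled it in replicate 2, with 11 each, and Mta2 and Chd4 had more regions in both replicates per 100 kb (6.34 and 5.94, against 5.80). Of the 9, 7 were distal and 5 of those lay in its own introns, while the last 2 were its own promoter and the promoter of Zc3h18. Every one of the 5 distal body regions found among the 10 genes in both replicates was in Zfpm1. All 9 also lie in introns of Gm20388, a longer protein-coding model that overlaps Zfpm1, so these positions cannot be given to 1 gene by annotation alone.

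The Zfpm1 promoter region (122281266-122282122) was 857 bp wide and had a signal value of 6.97 in replicate 1 and 8.48 in replicate 2. Signal is the authors' enrichment value for a peak and is not scaled between libraries, so each value is read through its percentile in its own list. These signals stood at percentiles 36.9 and 45.9, below the middle of both lists. In the intronic region 12.2 kb from the start, signal was 9.66 and 8.44, at percentiles 63.9 and 45.6. At 27.4 kb (122309084-122309863), the widest of the intronic regions at 780 bp, signal was 8.71 and 7.11, at percentiles 56.0 and 31.1. This region lies 2.19 kb from the start of a shorter Zfpm1 transcript.

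Further into the gene, signal at 31.4 kb was 7.0 and 7.27, and at 39.6 kb (122321610-122322060) it was 7.84 and 9.27. At 40.7 kb (122322546-122323114) it was 4.32 and 4.16, at percentiles 4.17 and 2.16. The last of these is among the weakest entries of both lists although its window held 4 GATA matches, a number reached by 2.64% of all distal regions. The 5 GATA matches at 27.4 kb were reached by 0.474% of all distal regions.

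Outside the gene body, signal 8.81 kb upstream (122273004-122273476) was 7.63 and 5.44, and 67.7 kb downstream (122349433-122350035) it was 5.60 and 11.0. The downstream region stood at percentile 17.6 in replicate 1 and 67.5 in replicate 2, so its rank depends on the library. The upstream region is the 1 distal region of Zfpm1 without a GATA match. In all, the 7 distal regions held 14 matches and the 5 intronic ones 13.

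The density of distal regions at Zfpm1 was 4.51 per 100 kb of searched sequence, the highest of the 10 genes. It ranks at percentile 99.5 of all protein-coding genes, 110 of which had a higher density. By number, 142 genes (0.647%) had 7 or more distal regions. None of the 9 regions was in the stronger 50% of the list in both replicates, and the mean percentiles of the 5 intronic regions ran from 3.16 to 54.8.

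Zfpm2 encodes FOG2. It lies on chromosome 15 (ENSMUSG00000022306.9, 40655035-41104592, plus strand) and, at 449.6 kb, is the longest of the 10 genes. It had 0 regions in both replicates and no promoter region in either, over a searched span of 549.6 kb. Replicate 1 alone had a region in one of its introns, 245.5 kb from the start (40900410-40900821), with a signal of 3.99 at percentile 2.52. Each replicate also has a longer, lenient list, with 35229 merged regions in replicate 1 and 39290 in replicate 2. Both lenient lists held the intronic region. Its window had a GC content of 37.0% and 3 GATA matches, which 11.5% of distal regions reached. The 2 FOG genes thus stood at opposite ends of the group, with 9 and 0 regions in both replicates.

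Gfi1 lies on chromosome 5 (ENSMUSG00000029275.18, 107716657-107726036, minus strand) and had no promoter region in either replicate. It was the only member besides Zfpm2 without one. Its 2 regions in both replicates were distal and lay upstream in introns of Evi5, a neighbouring gene. At 33.3 kb upstream (107758984-107759620) signal was 17.9 in replicate 1 and 15.3 in replicate 2, at percentiles 98.5 and 89.9. At 42.4 kb upstream (107768176-107768703) signal was 10.1 and 14.4, at percentiles 67.5 and 86.3.

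The region at 33.3 kb had the highest mean percentile of all 41 regions, 94.2, ahead of the Hdac1 promoter at 92.4. Its −log10 p, the authors' measure of how unlikely the peak is under their background, was 79.7 and 67.5. It was highest in neither replicate taken alone: the Hdac1 promoter had the higher signal in replicate 1 and the Eef1g promoter, near Mta2, in replicate 2. Its window, printed above, held 2 RUNX matches, 5 bp before and 47 bp after the summit, and the GATA matches lay 15 and 20 bp after it. The share of distal regions with 2 or more RUNX matches was 3.43%, and 35.0% held 2 or more GATA matches. Another region, 14.2 kb downstream of the Gfi1 start, was listed in replicate 1 alone with a signal of 5.13. The lenient list of replicate 2 and the authors' conservative list over both replicates held it too.

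Gfi1b lies on chromosome 2 (ENSMUSG00000026815.14, 28609450-28621982, minus strand) and differed from Gfi1 in having its own promoter region in both replicates. Its 5 regions were all listed in both, and the only other member with no region in 1 replicate alone was Kdm1a. The promoter region (28621824-28622234) had a signal of 5.30 and 8.22, at percentiles 14.4 and 43.4. Downstream of the gene, the region at 23.9 kb (28597746-28598519) had 8.41 and 8.01, at percentiles 52.8 and 40.7. The region at 19.6 kb (28602152-28602564) had 4.85 and 7.08, at percentiles 8.60 and 30.8. Both distal regions held GATA matches, 2 and 3, and the promoter held 0. The other 2 regions were the promoters of Gtf3c5 (9.88 and 9.62) and Tsc1 (9.40 and 6.90).

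GFI1 proteins recognise sites built on the letters AATC, and GFI1B is known to act on its own promoter. The longer form AAATCAC occurred in 0 of the 18 distal and 0 of the 8 own promoter windows, against 1.65% of all distal and 0.972% of all promoter regions in both replicates. The core AATC, a shorter motif added after the data were seen, occurred 3 times in the Gfi1b promoter window, where it is in capitals on either strand (GATT is AATC on the other strand).
Gfi1b promoter, chr2:28621829-28622028: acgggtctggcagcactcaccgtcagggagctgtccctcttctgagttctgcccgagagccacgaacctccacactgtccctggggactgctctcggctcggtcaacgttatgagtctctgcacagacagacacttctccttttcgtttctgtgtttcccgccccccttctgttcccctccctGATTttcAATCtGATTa
All 3 lie at the end of the window as printed. At least 3 such cores were found in 6.18% of all promoter regions and at least 1 in 52.9%, so the core alone is common. The Zfpm1 promoter window held 1, and the Gfi1 windows at 33.3 and 42.4 kb upstream held 2 and 1. A match is a run of letters and not evidence of binding.

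Among the CoREST genes, Kdm1a, the demethylase gene, had 1 region and Rcor1, the scaffold gene, had 5 in both replicates. Kdm1a lies on chromosome 4 (ENSMUSG00000036940.15, 136550540-136602723, minus strand), and its single region was the promoter (136602649-136602989), with a signal of 8.81 and 11.3 at percentiles 56.8 and 69.5. Rcor1 lies on chromosome 12 (ENSMUSG00000037896.17, 111039351-111115901, plus strand), and its promoter (111038926-111039376) had 13.5 and 12.7, at percentiles 87.6 and 77.9. The Rcor1 promoter had the highest −log10 p of the own promoters, 85.0 and 81.3.

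All 4 distal regions of Rcor1 in both replicates lay upstream of it. The strongest, 31.5 kb upstream in an intron of the noncoding RNA gene 6030440G07Rik (111007576-111008188), had a signal of 12.0 and 12.1, at percentiles 80.1 and 74.8. Signal was 9.56 and 9.15 at 47.6 kb (110991408-110992611), which at 1204 bp was the widest region of the group and had summits 502 bp apart in the replicates. It was 7.14 and 9.83 at 10.7 kb and 4.53 and 5.40 at 3.96 kb. The regions at 31.5, 10.7 and 3.96 kb held 2, 2 and 1 GATA matches, and the one at 47.6 kb held 0. The window at 31.5 kb is shown as the strongest distal region of the corepressor genes, a choice made after its values were seen.
Rcor1, 31.5 kb upstream, chr12:111007748-111007947: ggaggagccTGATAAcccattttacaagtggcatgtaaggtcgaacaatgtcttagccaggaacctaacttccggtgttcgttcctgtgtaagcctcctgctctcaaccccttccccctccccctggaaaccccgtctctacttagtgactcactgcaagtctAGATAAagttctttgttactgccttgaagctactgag
Its density of distal regions, 2.27 per 100 kb, was below only that of Zfpm1 and stood at percentile 94.2 of all genes. A further 4 regions were listed in 1 replicate, among them 2 in Rcor1 introns in replicate 1. With the list of replicate 1 alone Rcor1 had 8 regions, so its number depends on the library more than that of most members.

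The shared deacetylase genes had few regions beyond their promoters. Hdac1 lies on chromosome 4 (ENSMUSG00000028800.15, 129516104-129542713, minus strand), and its promoter (129542574-129543033) had the highest signal of the own promoters, 18.5 and 14.3, at percentiles 98.9 and 85.9. Hdac2 lies on chromosome 10 (ENSMUSG00000019777.16, 36974544-37001889, plus strand), and its promoter (36974107-36974674) had 9.06 and 10.4, at percentiles 58.9 and 62.9. Replicate 1 alone had another Hdac2 region just inside the gene (36974880-36975127), with a signal of 6.56.

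Hdac1 had 2 more regions in both replicates. One was distal, 41.8 kb downstream of the start (129500621-129501257), with 7.12 and 5.74. The other was at a start site of Lck, the T cell kinase gene, with 6.03 and 6.54, at percentiles 23.9 and 24.0. The lenient list of replicate 1 did not hold this Lck region, although the thresholded list of that replicate did. With the list of replicate 2 alone Hdac1 had 5 regions and not 3. Hdac2 had no distal region in both replicates.

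Both NuRD genes sit among other genes, and most of their regions were promoters of neighbours. Chd4 lies on chromosome 6 (ENSMUSG00000063870.12, 125095981-125130591, plus strand) and had 8 regions in both replicates, 5 of them at promoters of Lpar5, Nop2, Iffo1 and Gapdh. Its own promoter region (125095777-125096172) had the lowest rank of the 8 own promoters, with a signal of 4.38 and 4.33 at percentiles 4.48 and 2.64. In replicate 2 a separate weak region lay 1.13 kb inside the gene (125096940-125097226), with 4.45. The neighbour Iffo1 had 13.7 and 14.2, at percentiles 88.7 and 85.4, so the Chd4 promoter ranked far below another promoter of its own neighbourhood in both libraries. The 2 distal regions lay 7.0 and 6.04 kb upstream, with signals of 4.82 and 7.60 and of 7.08 and 7.88, and held 0 GATA matches. The nearer one held 7 KLF1 matches, and 1.25% of all distal regions held 5 or more. Each of the 7 overlaps another in part, so they are not 7 separate sites. The GC content of this window was 63%, against a median of 49% over all distal regions.

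Mta2 lies on chromosome 19 (ENSMUSG00000071646.9, 8941875-8952303, plus strand) and had 7 regions in both replicates, none of them distal. The 6 at other promoters were those of Ganab, B3gat3, Eml3 with Rom1, Tut1, Eef1g and Ahnak, and Eef1g had the highest mean percentile, with a signal of 11.7 and 16.5. Ganab had 13.4 and 13.1, and was the higher of the pair in replicate 1. The region at the 5′ end of Mta2 (8941651-8942101) was listed in replicate 2 alone, with a signal of 9.23 at percentile 53.2, though the more lenient list of replicate 1 held it. The authors' conservative list over both replicates held it too, and left out the internal start described next. In both replicates Mta2 had a region at an internal transcript start, 2.39 kb into the gene in an intron (8944125-8944498), with 5.77 and 4.88 at percentiles 21.0 and 5.67. This was the only own promoter window with GATA matches, and is shown for that reason.
Mta2 internal start, chr19:8944168-8944367: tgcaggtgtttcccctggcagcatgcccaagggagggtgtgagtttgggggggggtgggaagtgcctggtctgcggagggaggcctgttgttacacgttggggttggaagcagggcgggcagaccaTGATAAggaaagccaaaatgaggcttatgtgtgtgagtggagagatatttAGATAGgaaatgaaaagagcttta

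**Figure D2:**
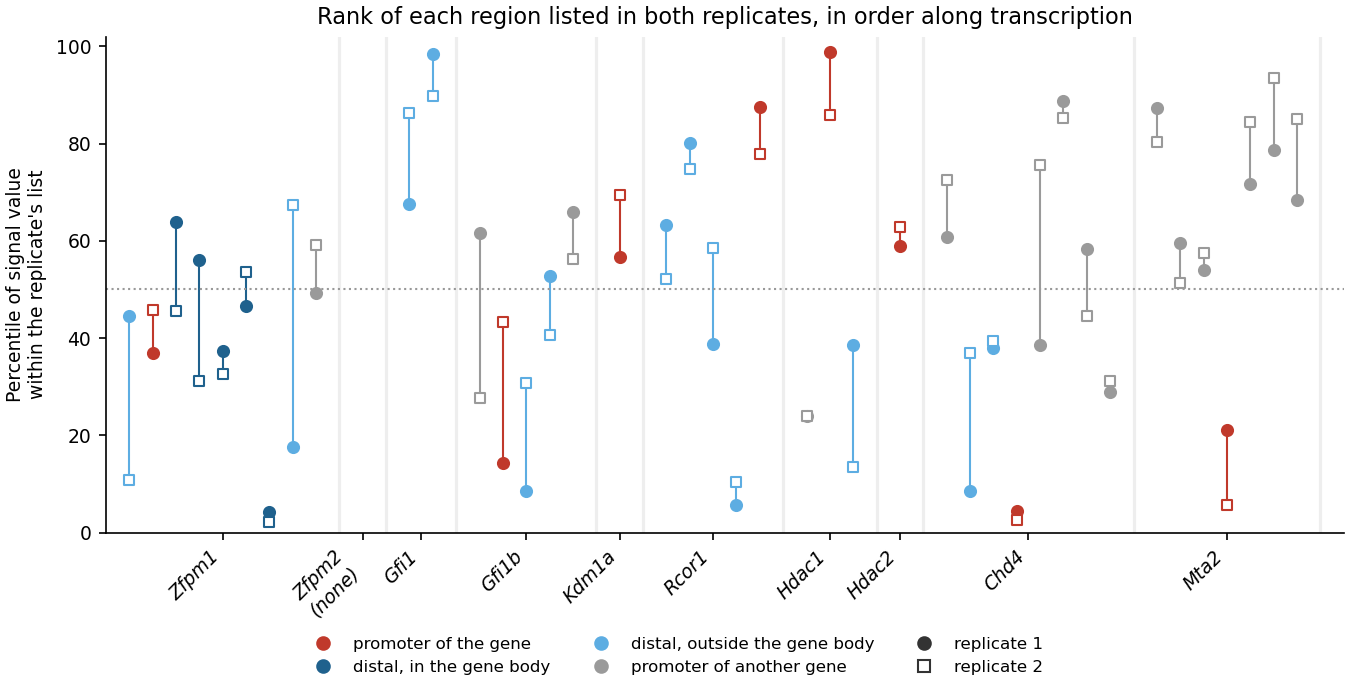
Percentile of the signal value within each replicate's own list for the 41 regions in both replicates, in order along transcription of each gene, with a filled circle for replicate 1 and an open square for replicate 2 joined by a line. The dotted line marks percentile 50: the Gfi1 regions and the Rcor1 and Hdac1 promoters lie above it in both replicates, and the Chd4 promoter and the Zfpm1 region at 40.7 kb lie under percentile 5 in both.

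Promoter regions were called for 8 of the 10 genes in replicate 1, against 40.5% of all protein-coding genes, and for 8 in replicate 2, against 42.1%. In both replicates the number was again 8 of 10, against 38.8%. Counted at the outermost 5′ end alone it was 7 of 10, without Mta2, against 35.5%. These promoters ranked lower than those of genes at large: the median of the mean percentile was 51.1 in the 8 genes and 72.7 over all genes with a promoter region in both. With the stronger 50% of regions only, 4 of 10 remained (Kdm1a, Rcor1, Hdac1 and Hdac2), against 27.1% of all genes, and none of the factor genes did. The genes were picked for their roles in blood cells and chromatin, so their count is a description of these 10 and was not tested.

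For regions of any kind in the body or within 50 kb, 9 of 10 genes had at least 1 in both replicates, against 68.2% of all genes. For distal regions it was 6 of 10, against 38.8%. The median gene of the 10 had 4 regions in both replicates, against 2 over all genes and 3 over genes with a promoter region in both. Per 100 kb of searched sequence the median of all regions was 2.60 in the 10 genes, 1.20 over all genes and 2.59 over genes with a promoter region in both. The median of distal regions per 100 kb was 1.14, 0 and 0.619 in the same order. The medians of the 10 include Zfpm2 and Gfi1, which had no promoter region and total densities of 0 and 1.83 per 100 kb. They are therefore not on a like set with those of genes with a promoter region in both, and the nearness of 2.60 to 2.59 is not read as a result. Distal density spread from 0 in 4 genes to 4.51 in Zfpm1.

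**Figure D3:**
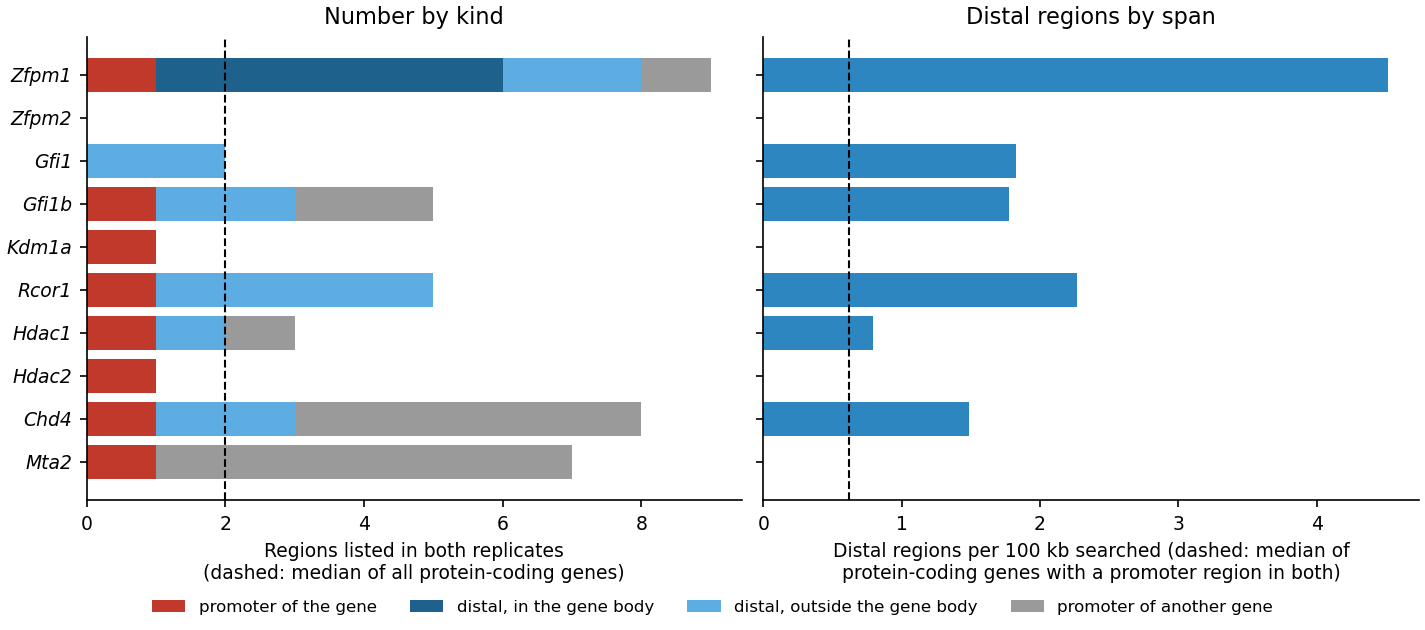
Left, number of regions in both replicates for each gene by kind, with a dashed line at the median of 2 over all protein-coding genes. Right, distal regions per 100 kb searched, with a dashed line at the median of 0.619 over genes with a promoter region in both; Zfpm1 stands at 4.51 and Kdm1a, Hdac2, Mta2 and Zfpm2 at 0.

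The regions were of middling strength. The median of the mean percentile was 51.4 for the 41 regions and 58.7 for all regions in both replicates, and for distal regions it was 43.1 in the 18 and 51 in all 8227. Between the replicates, 37 of the 41 had signals within 1.5 times of each other, against 91.5% of all regions, and the percentiles of 9 differed by over 20 points, against 18.7%. Summits lay a median of 13 bp apart. Of the 16 regions listed in 1 replicate, 10 were held by the lenient list of the other, and their median percentile was 8.92, so most were weak entries. The authors' conservative list over both replicates held 37 of the 41. The 4 it left out were the Zfpm1 region at 67.7 kb, the Hdac1 region at 41.8 kb, the Chd4 promoter and the internal Mta2 start. The shares of all regions held by the conservative and lenient lists were not counted. The 37 of 41 and 10 of 16 thus have no background here and are not read as particular to these genes.

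Exact motif matches in 200 bp around the summit were set beside all regions of the same kind and length. GATA matches were in 13 of the 18 distal regions (72.2%), against 68.8% of all distal regions, so the share with at least 1 was close to that of all distal regions. At least 2 were in 8 (44.4%), against 35.0%, and at least 3 in 3, against 11.5%. Of the 3 distal regions with the most matches, 2 were in Zfpm1 and 1 downstream of Gfi1b. Matches to KLF1 (CCNCNCCC) were in 10 of 18 (55.6%), against 28%, and to SP1 (GGGCGG) in 6 (33.3%), against 9.99%. KLF1 and SP1 matches can share letters, and both are made of G and C. The distal windows of these genes had a median GC content of 58.8%, against 49% in all distal regions, and 17 of 18 were above that value; the part of base composition in the KLF1 and SP1 counts was not tested.

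The other motifs were near or below the share of all distal regions. E-boxes (CANNTG) were in 10 of 18 distal regions, against 72.0%, and their TAL1 form (CAGCTG or CAGATG) in 5, against 35.6%. RUNX matches (TGTGGT) were in 4, against 24.2%, NFY (CCAAT) in 4, against 22.1%, ETS (CCGGAA or AGAGGAA) in 3, against 16.0%, and AP-1 with NF-E2 (TGANTCA) in 1, against 14.0%. USF (CACGTG, itself an E-box) was in 1, against 5.12%. YY1 (AAGATGGC), CRE (TGACGTCA) and NRF1 were in 0, against 0.912%, 0.559% and 0.340%. With 18 windows, 1 region moves a share by 5.56 points, more than most of these gaps.

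**Figure D4:**
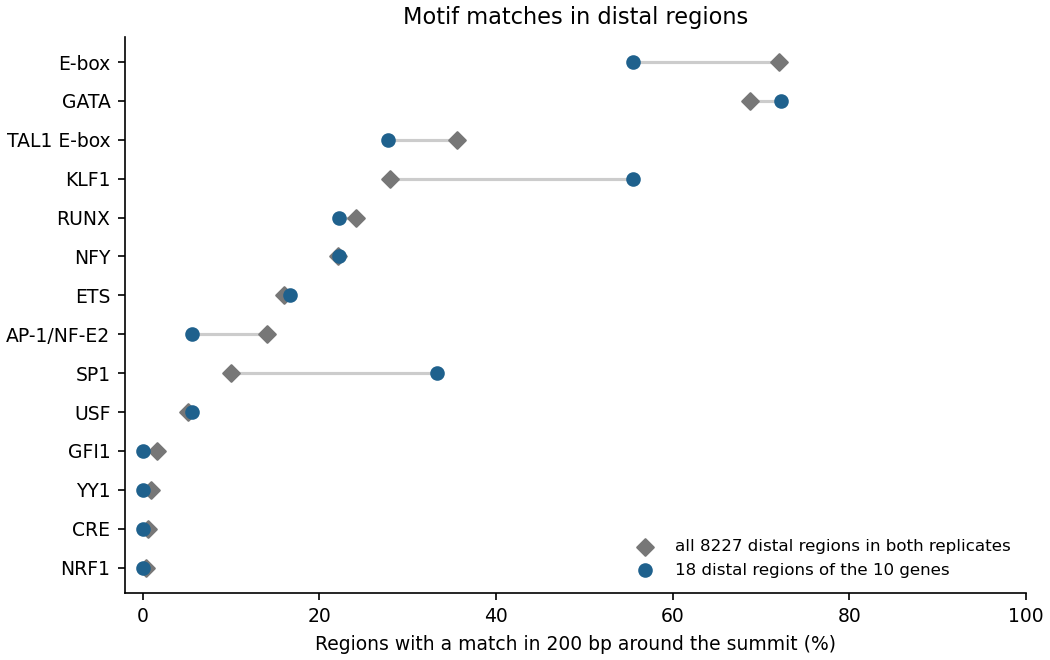
Share of distal regions with at least 1 exact match in 200 bp around the summit for each of 14 motifs, in percent, as circles for the 18 distal regions of the 10 genes and diamonds for all 8227 distal regions in both replicates. GATA stands at 72.2% and 68.8%, and the widest gaps are for KLF1 (55.6% and 28%) and SP1 (33.3% and 9.99%).

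At the 8 own promoters GATA was in 1 (12.5%), against 16.3% of all promoter regions. KLF1 was in 7 (87.5%), against 59.4%, SP1 in 6 (75.0%), against 58.1%, and NFY in 4 (50%), against 39.5%. ETS was in 1, the Hdac1 promoter, against 32.1%. Median GC content was 66.2% in the 8 and 62.5% in all promoter regions. GATA matches were thus found at distal regions of Zfpm1, Gfi1, Gfi1b and Rcor1, and at own promoters in 1 internal start of Mta2. Regions at promoters of neighbouring genes held them too, with 5 at Eml3 with Rom1, near Mta2. Those of Lpar5, Iffo1, Lck and Eef1g held 1 each.

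The other subunits of the same complexes were read from lists. In the NuRD list, promoter regions were in both replicates at 8 of 10 genes (80%), against 38.8% of all protein-coding genes. The strongest were Gatad2b, which encodes the p66 beta subunit, with a signal of 17.3 and 16.9, and Mbd3, which encodes a subunit with a methyl-CpG binding domain, with 15.4 and 16.1. Chd3 and Mta1, close relatives of Chd4 and Mta2, had none in either replicate, although Chd3 had 5 distal regions and Mta1 had 3. The lenient list of replicate 2 held a promoter region of Mta1, and neither lenient list held one of Chd3. The median NuRD gene had 6 regions and 2.5 distal regions in both replicates, against 2 and 0 over all protein-coding genes.

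In the CoREST list the count was 5 of 7, with the strongest at Zmym2, with 15.5 and 15.6. Rcor2, a relative of Rcor1, and Phf21a, which reads unmethylated histone tails, had none in either. The lenient list of replicate 1 held a promoter region of Phf21a, and neither lenient list held one of Rcor2. Both CtBP genes, Ctbp1 and Ctbp2, whose products are further corepressors bound by FOG1, had a promoter region in both replicates. In these 3 lists together it was 15 of 19 (78.9%), against 38.8% of all genes.

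Of 9 genes known as targets of GFI1 or GFI1B, 5 were listed at their promoter in both replicates (55.6%), against 38.8% of all genes. Gata3 had 17.3 and 17.4 and Rgs18, a regulator of G protein signalling in platelets, had 17.6 and 16.0, both above any own promoter of the 10 genes in replicate 2. Egr2, Bcl2l1 and Cdkn1a were the other 3. Meis1, a stem cell factor, had one in replicate 1 alone with a signal of 7.88, and Id2, Csf1 and Hoxa9 had none in either. Whether any of these sites is bound by the factors was not measured.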

How the data were processed

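ATAC-seq peak lists of 2 biological replicates of G1E cells were used, on mm10 per the labels. Which aligner and peak caller made them is not given in the sources used here. Per the submitters' notes on the files, each replicate has its own list cut by the irreproducible discovery rate. That rate measures agreement between repeated rankings of peaks. These lists held 26083 and 27810 peaks. A peak in either list need not be in the other, and 8376 of 25801 joined regions were in 1 list only. The signal value and the −log10 p of each peak were used as deposited, unscaled between libraries, only to describe and rank peaks within a list.

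Overlapping or touching peaks were merged, with the values of the strongest peak. Regions of the replicates were joined where they overlapped by at least 1 bp, and 17425 joined regions were in both: 8538 promoter regions (within 1000 bp of the start of some protein-coding gene's transcript), 8227 distal regions and 660 at noncoding start sites. Genes came from GENCODE M21 and sequences from the RefSeq genome GRCm38.p6, of the same build. Motif letters were searched for on both strands, with no mismatch, in the 200 bp around the summit of replicate 1. Python 3.11.15, pandas 2.3.3, numpy 2.4.6 and pysam 0.24.0 were used, and merging, joining and matching were tested on simulated data.

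All 10 genes are named, and genes of the pathway lists by strongest signal or by having no promoter region. A further gene of the original GFI1 and GFI1B target list was removed from it and is not reported here. Printed sequences are those of the factor genes' regions in both replicates with 2 or more GATA matches, the strongest distal region of each, and 3 others chosen after their values were seen. The genes and lists were chosen with earlier results of these data known. With 1 group and 2 replicates no test was made. Alternatives were the lenient, conservative and other thresholded lists, the stronger 50% of regions, a reciprocal overlap, leaving out each replicate, and other windows. The outermost 5′ end, the summit of replicate 2 and the AATC core were alternatives chosen after seeing the data. The authors' ranked lists were not used.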

Additional observations from a re-analysis of the deposited data

How the results depend on the processing

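Altogether 4 values moved by over 1.5 times under the alternatives. With the stronger 50% of regions, promoters in both replicates numbered 4 in place of 8, the regions in both numbered 17 in place of 41, and the distal ones 4 in place of 18. Searching 100 kb in place of 50 kb gave 64 regions, with 13 at Chd4 and 11 at Zfpm1. The other 29 of 33 such values stayed within 1.5 times. Leaving out each replicate gave 49 to 50 regions, 21 to 23 distal regions and 8 promoters, where a single list counts regions that the other lacks. Without replicate 2 the count rose from 5 to 8 at Rcor1, from 1 to 2 at Hdac2 and from 0 to 1 at Zfpm2, and without replicate 1 from 3 to 5 at Hdac1. A search of 25 kb left Gfi1 with 0 regions. For GATA, 10 to 14 of 18 distal regions held a match across windows, against 51.6% to 80.6% of all distal regions. Of the counts per gene, 71 of 90 stayed within 1.5 times. No paired analysis was possible because there is 1 group. The depth of the libraries is unknown, so weak sites may be missing from either list.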
